A study of Ovis aries with 10 samples.

Results

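In the endometrium of ovariectomized ewes, 59 of the 23020 sheep genes measured met a rule for an at least 4-fold loss under RU486. This antiprogestin was given in addition to progesterone. These 59 genes, called members below, were chosen by their levels in the 2 groups compared here. The mean of the progesterone ewes had to be at least 1 and at least 4 times that of the RU486 ewes, and the lowest progesterone ewe had to lie above the highest RU486 ewe. The difference between the groups, and the lack of overlap, are therefore set by the choice, are described here without a test, and are no finding. The rule also bears on how much of a transcript could be left and on the spread within a group, so the values of the members beside those of other genes are descriptions throughout. Only the readings given towards the end compare ewes of which neither took part in choosing the genes. The rule itself was set with earlier results of these data known, so those readings are descriptions too.

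The series asks how progesterone (P4) acts on the uterus of sheep and on the vesicles in its fluid, and it holds polyA RNA-seq of the endometrium, the inner lining dissected from the uterus and frozen. All 10 ewes had been ovariectomized and received P4 at 50 mg each day over 14 days. The group called P4 (n = 5) received no other agent, and the group called P4+RU486 (n = 5) also received RU486 at 50 mg per day between days 8 and 14. The labels give neither breed nor age, and both groups lack ovaries and carry exogenous P4, so no ewe stands for a cycle or a pregnancy. Ewes are separate animals, and their numbers only name them. Group values below are means ± SD over the 5 ewes of a group.

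Progesterone acts through its nuclear receptor, a transcription factor of stroma, epithelium and myometrium that prepares the uterine lining for the embryo. In ruminants, sustained progesterone directs the endometrial glands and surface epithelium to secrete the proteins and nutrients on which the conceptus depends before it attaches. RU486 (mifepristone) binds the progesterone receptor as an antagonist, and it also binds the glucocorticoid receptor. Which receptor a transcript answered to was not measured.

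The deposited table gives genes as Ensembl identifiers of sheep without symbols, and 0 of them matched the reference gene table used here. No gene name, function, position or sequence is therefore given. The identifiers of 2 members are printed, and the others are called by their rank in mean level under P4, from 1 (the most abundant) to 59. For the same reason the tissue was not checked against its markers. In a tissue extract, fewer cells of a type and less RNA per cell cannot be told apart. Levels are in FPKM, that is, scaled for gene length and library size, which is a reading of the values and not a stated unit. No sequencing depth is given, so counting noise cannot be split off. The error given with each value is the spread over ewes and holds that noise besides the differences between animals.

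Of the 10 libraries, 1 had the highest value in each measure taken. The summed FPKM of a ewe ran from 680815 to 965174, and 2988 to 3904 genes were at 0. The 100 most abundant genes took 25.2% to 37.5% of the sum. Over these 3 measures the exact permutation tests, two-sided, gave p between 0.135 and 0.714 (0.405 to 0.714 after Benjamini-Hochberg adjustment). P4+RU486 replicate 2 held the highest value in all 3. Without that ewe the rule chose 71 genes, 55 of them members.

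Losses this large were rare. Among the 15004 genes with a P4 mean of at least 1 FPKM, 111 (0.74%) had a P4 mean at least 4 times the P4+RU486 mean, and 59 of those 111 (53.2%) also parted without overlap. Lack of overlap with P4 above was found in 545 of the 15004 genes (3.63%), of which the members made up 10.8%. The same rule turned round, for genes higher under RU486, found 46 genes at least 4-fold higher, of which 19 (41.3%) did not overlap. In a linear model across all genes (limma on log2(FPKM + 1), Benjamini-Hochberg adjusted p under 0.05), 319 of 23019 genes (1.39%) were called lower in P4+RU486, and 52 of the 59 members were among them. The model uses the contrast that chose the members, so nothing is read from that share. Without 1 ewe at a time, 124 (without P4 replicate 4) to 595 (without P4+RU486 replicate 2) genes and 31 (without P4+RU486 replicate 3) to 52 members were called lower. The median log2 difference on this scale, P4+RU486 minus P4, was -1.91 over the members and 0 over all genes tested. The 7 members that were not called had P4 means between 2.06 and 28.0 FPKM.

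**Figure D1:**
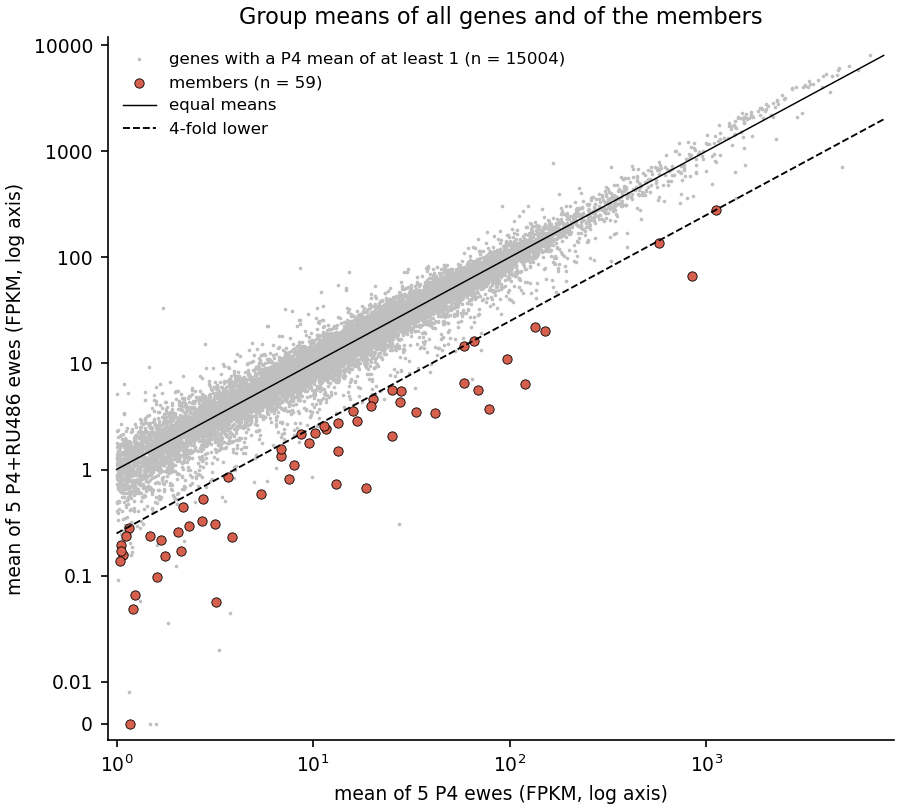
Mean level of each gene in the 5 P4 ewes (horizontal, FPKM, log axis) against its mean in the 5 P4+RU486 ewes (vertical, FPKM, log axis, with 0 drawn at the bottom), for the 15004 genes with a P4 mean of at least 1 (grey) and the 59 members (red). The members lie on or under the dashed line of a 4-fold lower mean, from 1.04 to 1118 FPKM in P4, and grey points under that line are genes whose ewes overlapped.

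The members spanned the range from rare to very abundant transcripts. Their P4 means ran from 1.04 to 1118 FPKM with a median of 9.55, against a median of 15.8 over the 15004 genes. Of the members, 6 were at 100 FPKM or more, 23 between 10 and 100, 11 between 3 and 10, and 19 between 1 and 3. Members made up 0.520%, 0.275%, 0.326% and 0.895% of the genes in these 4 bands, so the share was highest among the rarest. The level left under RU486 was a median of 13.8% of the P4 mean. The median left was 14.9%, 16.9%, 13.8% and 13.0% by band, in the same order. By the ratio of means, 18 members were 4- to 5-fold lower, 24 were 5- to 10-fold, 12 were 10- to 20-fold and 4 were more than 20-fold lower, and 1 member was listed at 0 in every P4+RU486 ewe and has no ratio.

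**Figure D2:**
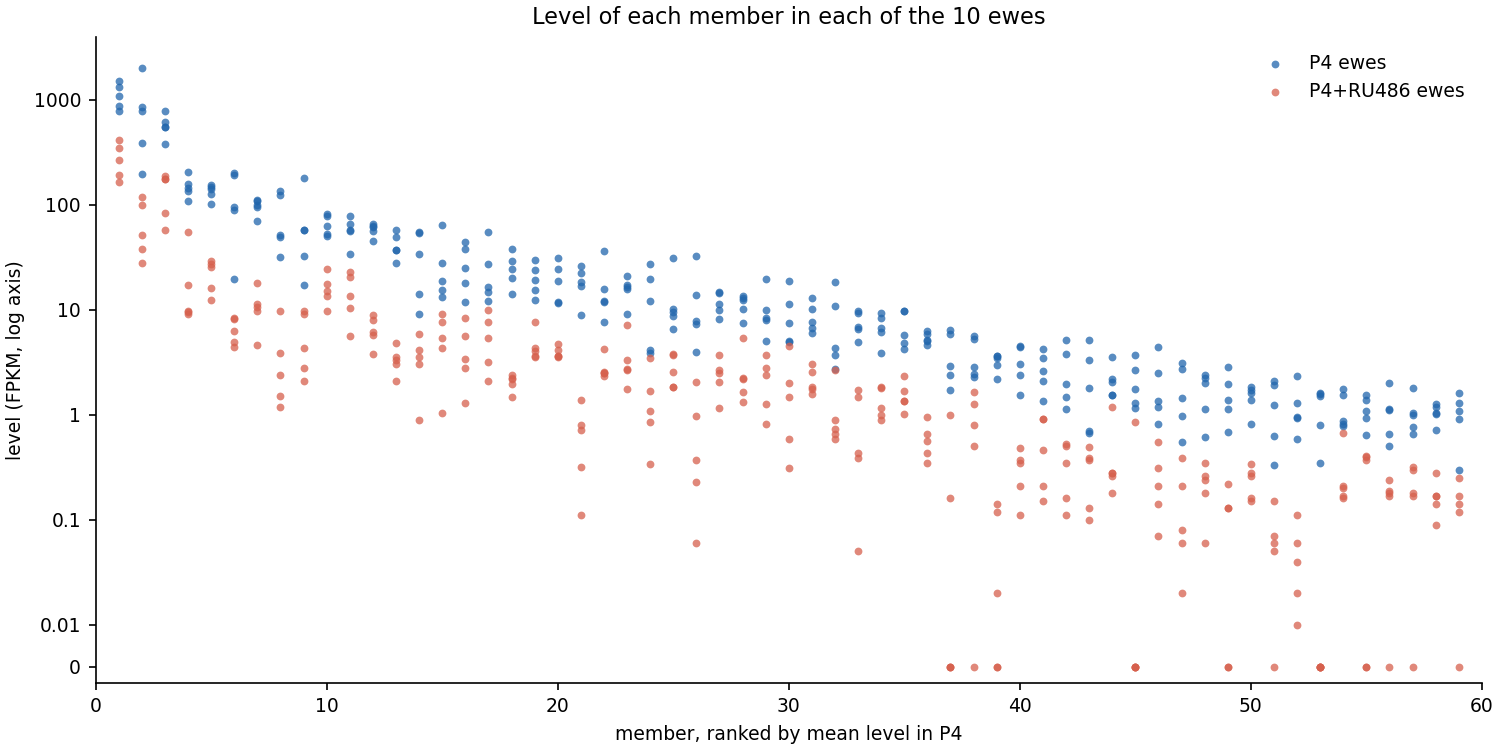
Level of each of the 59 members (horizontal, ranked by mean level in P4) in each of the 10 ewes (vertical, FPKM, log axis, with 0 drawn at the bottom), P4 ewes in blue and P4+RU486 ewes in red. The lowest blue point lies above the highest red point for every member, as the rule requires, but the distance between them ranges from 1.02-fold (rank 32) to 15.8-fold (rank 39).

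The most abundant member, ENSOARG00000009653, was also among the least reduced. It was at 784, 1332, 1503, 876 and 1094 FPKM in P4 replicates 1 to 5 and at 346, 268, 166, 414 and 194 FPKM in P4+RU486 replicates 1 to 5. The means were 1118 ± 302 and 277 ± 104 FPKM, a ratio of 4.03. The lowest P4 ewe was 1.89 times the highest P4+RU486 ewe. This transcript stayed abundant under RU486, at 24.8% of its P4 level. Its log2 difference on the log2(FPKM + 1) scale was -2.05 (SE 0.28).

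The largest ratio among members with a P4 mean of at least 10 FPKM was that of ENSOARG00000019730, ranked 21. Its P4 values were 18.4, 8.95, 26.4, 16.8 and 22.5 FPKM, and its P4+RU486 values were 0.11, 0.72, 0.8, 1.4 and 0.32 FPKM, replicates 1 to 5 in both. The means were 18.6 ± 6.55 and 0.67 ± 0.497 FPKM, a ratio of 27.7, so 3.6% of the P4 level was left. All 5 treated ewes were at or under 1.4 FPKM, and the lowest P4 ewe was 6.39 times the highest of them. Its log2 difference on the log2(FPKM + 1) scale was -3.53 (SE 0.3), which the added 1 FPKM reduces. The same difference was -4.81 with a pseudocount of 0.1 and -2.01 with a pseudocount of 5.

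A few abundant transcripts made up most of the members' summed level. Over all 59 members the sum came to 3820.4 ± 1001 FPKM under P4 alone, against 654 ± 110.1 FPKM with RU486, a ratio of 5.84. As a share of a ewe's summed FPKM, the members took 0.509% ± 0.113 under P4 alone, against 0.0851% ± 0.0177 with RU486. The 3 most abundant members held 66.6% of the P4 sum. Without them the sums were 1277 ± 151 and 173 ± 21.6 FPKM, a ratio of 7.37 with less spread between ewes. These sums describe genes chosen for the difference.

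The member ranked 2 differed widely between ewes under P4. It was at 196, 787, 2000.2, 393 and 862 FPKM in P4 replicates 1 to 5 and at 99.8, 120, 28.1, 37.8 and 51.6 FPKM in P4+RU486 replicates 1 to 5. P4 replicate 3 alone reached 2000.2 FPKM, 10.2 times P4 replicate 1, which in turn was 1.64 times the highest treated ewe. Rank 3 behaved otherwise, at 782, 558, 378, 551 and 623 FPKM under P4 alone, and 83.0, 57.4, 188, 177 and 176 FPKM with RU486. Here P4 replicate 3 was the lowest of its group, and 3 treated ewes lay close together above the other 2.

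Among the other members above 100 FPKM in P4, rank 4 had 1 treated ewe apart. Its P4 values ran from 109 to 205 FPKM, its P4+RU486 replicate 1 was at 55.3 FPKM and the other 4 treated ewes were between 9.11 and 17.2 FPKM. Rank 5 was even in both groups, at 103 to 154 FPKM under P4 alone, and 12.4 to 29.4 FPKM with RU486. Rank 6 was the reverse of rank 4. Its treated ewes lay between 4.39 and 8.45 FPKM, whereas its P4 ewes were at 96.0, 203, 192, 89.9 and 19.5 FPKM, with P4 replicate 5 far below the other 4.

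The distance between the groups' nearest ewes differed from member to member. The lowest P4 ewe was at least 2 times the highest P4+RU486 ewe in 25 of the 58 members with a treated ewe above 0, and at least 4 times in 7. In 4 members this gap was under 1.2-fold. The median gap was 1.86-fold, well under the median ratio of means of 7.09. The narrowest was that of rank 32, with P4 replicate 1 at 2.72 FPKM and P4+RU486 replicate 1 at 2.67 FPKM.

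In 9 members the P4 ewes lay within 2-fold of each other and the gap was at least 2-fold. They were ranks 5, 7, 10, 12, 27, 33, 36, 39 and 58. Rank 12 was at 45.2, 66.4, 56.6, 61.8 and 62.8 FPKM under P4 alone, and at 5.72, 3.84, 6.14, 8.05 and 8.97 FPKM with RU486, a mean of 58.5 ± 8.26 against 6.54 ± 2.02 FPKM. Rank 36 was rarer and just as even, at 4.64 to 6.3 FPKM under P4 alone, and 0.35 to 0.96 FPKM with RU486. Its P4 ewes differed by 1.36-fold, the smallest spread of any member. Rank 39 had the widest gap, with P4 ewes at 2.21 to 3.66 FPKM and treated ewes at 0.14, 0.02, 0, 0 and 0.12 FPKM.

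Values of 0 under RU486 were found among the rarer members. In 11 members (18.6%) at least 1 treated ewe was at 0, against 1.33% of the 15004 genes with a P4 mean of at least 1. The rule favours this, and the most abundant of the 11 had a P4 mean of 3.87 FPKM. Rank 53 was at 1.6, 1.51, 1.59, 0.8 and 0.35 FPKM in P4 and at 0 in all 5 treated ewes. Rank 45 was at 0 in 4 treated ewes and at 0.85 FPKM in P4+RU486 replicate 5, against 1.16 to 3.73 FPKM in P4. Without read counts, a value of 0 sets no upper limit on the level.

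Members differed between ewes of the same group by more, at the median, than genes at large. The coefficient of variation within P4 had a median of 42.7% over the members and 15.4% over the 15004 genes. Within P4+RU486 it was 58.3% over the 58 members above 0 in the treated mean, against 22.5% over the genes above 0 in it. The highest P4 ewe was a median of 2.95 times the lowest over the members, and 1.47 times over the 14901 genes above 0 in every P4 ewe. It was at least 4 times the lowest in 20 members (33.9%) and in 4.91% of those genes. The rule takes part in these values, since a single high P4 ewe can bring a gene past the 4-fold threshold and treated levels had to be low, so the comparison with other genes is no finding.

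The ewe in which a member was highest differed from member to member. Among P4 ewes, replicate 3 was highest in 19 members, replicate 2 in 14, replicate 1 in 12, replicate 5 in 10 and replicate 4 in 4. P4 replicate 1 was lowest in 18 members (30.5%), more than any other P4 ewe, against 16.0% of those genes. Its median level over the members was 84.9% of the P4 mean, against 92.8% to 103% in the other 4 P4 ewes. Among treated ewes, P4+RU486 replicate 5 had the highest median level over the members, at 16.7% of the P4 mean against 10.9% to 13.7% in the other 4. It was the lowest treated ewe in 5 members (8.47%), against 18.9% of those genes. Its summed level of the members, 600 FPKM, was below that of replicates 1, 2 and 4 (710, 637 and 807 FPKM) and above that of replicate 3 (518 FPKM).

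A set of 9 members (15.3%) stood out in P4 replicate 3, which exceeded the next P4 ewe at least 1.5-fold in each. The same held for 1.85% of the genes with a P4 mean of at least 1. They were ranks 2, 9, 15, 25, 26, 29, 30, 32 and 46. A like lead of another P4 ewe was seen in 1 to 3 members each. The rule can admit a gene through 1 very high P4 ewe. Without P4 replicate 3 the ratios of ranks 15, 25 and 29 were 3.45, 3.20 and 3.58, under the threshold, and those of the other 6 were between 4.05 and 11.2. Rank 25 was at 6.6, 9.63, 31.4, 10.3 and 8.78 FPKM in P4, and rank 26 at 7.81, 7.41, 32.6, 13.7 and 3.95 FPKM. Both exceeded 30 FPKM in replicate 3 alone. Their treated ewes were at 1.86 to 3.81 FPKM for rank 25 and 0.06 to 2.04 FPKM for rank 26. This grouping was made after the values were seen and has no test.

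Another 7 members ran against that pattern, with P4 replicates 1 and 4 each at least 1.5 times replicates 2 and 3. They were ranks 14, 37, 38, 43, 47, 48 and 56, also chosen after their values were seen. Rank 14 was at 53.9, 14.1, 9.08, 34.4 and 55.7 FPKM in P4, and its treated ewes were at 0.89 to 5.94 FPKM. Rank 43 was at 3.34, 1.82, 0.67, 5.11 and 0.7 FPKM in P4, with treated ewes at 0.1 to 0.49 FPKM. P4 replicate 3 was the lowest P4 ewe in both examples, so the members did not share 1 order of the ewes.

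**Figure D3:**
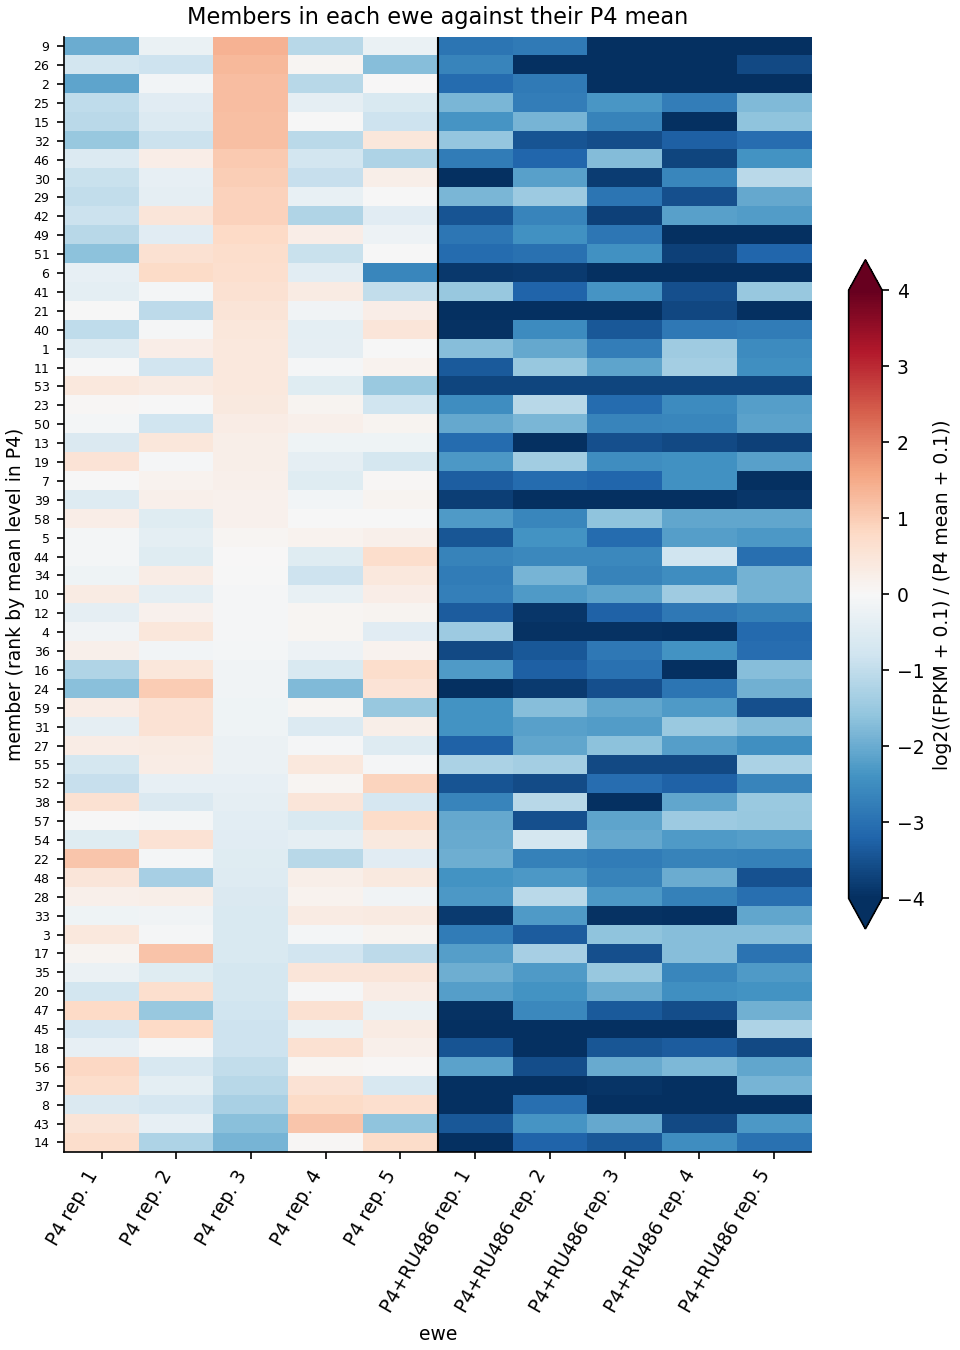
Level of the 59 members (rows, labelled by rank and ordered by their level in P4 replicate 3) in each ewe (columns) as log2 of the level over the member's P4 mean, with 0.1 FPKM added to both; red is above the P4 mean, blue below, and the colour scale ends at -4 and 4. Members at the top are high in P4 replicate 3 and members at the bottom are low in it, while all are lower in the 5 treated ewes at the right.

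The members ranked 2 and 9 varied together from ewe to ewe at a nearly fixed ratio. Rank 9 was at 17.3, 58.0, 181, 32.4 and 57.8 FPKM under P4 alone, and at 9.14, 9.73, 2.12, 2.77 and 4.29 FPKM with RU486. The level of rank 2 over that of rank 9 averaged 12.6 ± 1.62 under P4 alone, 12.4 ± 1.08 with RU486, and between 10.9 and 14.9 in all 10 ewes, although over these ewes rank 2 itself varied 71.2-fold and rank 9 varied 85.2-fold. The SD of the log2 ratio over the 10 ewes was 0.148. Among the 1128 pairs of the 48 members above 0 in every ewe, this was the only pair under 0.25, the next pair was at 0.337 and the median was 1.17. Over all 14763 genes that were above 0 in every ewe and at a P4 mean of at least 1, the next closest to rank 2 was rank 32 at 0.788. The pair was singled out after its values were seen. Where 2 genes are near-identical copies, the assignment of reads between them is uncertain, and 2 gene models of 1 locus would enter a transcript 2 times among the members and in their summed level. Whether either holds for this pair was not tested.

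**Figure D4:**
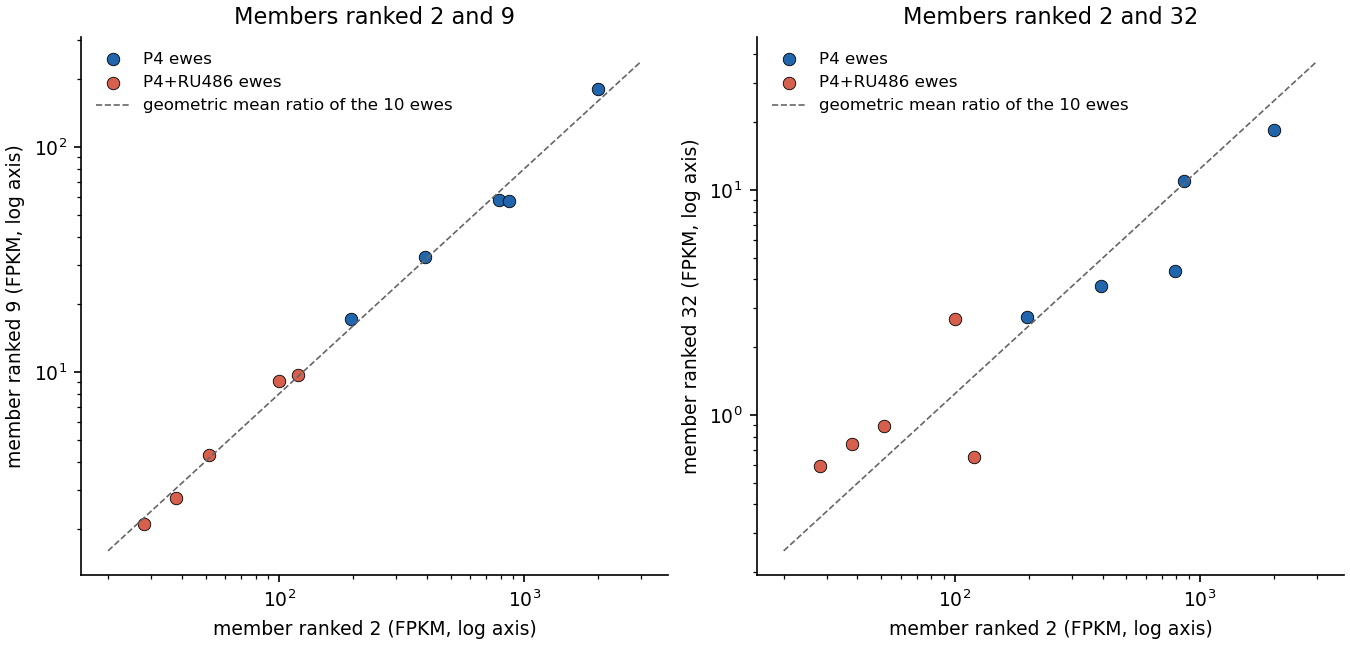
Level of the member ranked 2 (horizontal, FPKM, log axis) against the members ranked 9 (left) and 32 (right, both vertical, FPKM, log axis) in the 10 ewes, P4 in blue and P4+RU486 in red; the dashed line is the geometric mean ratio of the 10 ewes. The left points keep to the line across both groups (ratios of 10.9 to 14.9), and those of rank 32, the next closest gene, scatter about it with an SD of the log2 ratio of 0.788.

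The most abundant member had no such partner among the members. Its 4 closest genes by the SD of the log2 ratio (0.443 to 0.475 over 10 ewes) were not members. The closest to ENSOARG00000019730 were all members, ranks 40, 36, 8 and 7, at 1.24 to 1.35. This measure draws together genes with the same difference between the groups, which the rule fixes for members.

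The loss was also read in ewes that took no part in choosing the genes. The rule was applied to 8 ewes, and the genes it chose were compared between the P4 ewe and the treated ewe left out. There are 25 such pairs of ewes, and this reading was added after the data had been seen. The rule chose 63 to 94 genes. The left-out P4 ewe was higher than the left-out treated ewe in 79.8% to 96.1% of them (median over pairs 88.6%). Over all genes with a P4 mean of at least 1 in the 8 ewes, that share was 46.8% to 52.4%. The level in the left-out treated ewe was a median of 12.4% to 33.1% of that in the left-out P4 ewe (median over pairs 20.9%), against 97.8% to 102% over all such genes. The share was lowest and the level left highest for P4 replicate 3 with P4+RU486 replicate 5. In each of the 25 pairs the P4 ewe was thus the higher in most of the genes. Over the 59 members the median left, in the ewes that chose them, was 13.8%. The pairs share ewes and genes are not independent of each other, so these values carry no p-value. The rule was also set with earlier results of these data known.

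With 1 ewe left out at a time, the rule chose 62 to 77 genes without a P4 ewe and 58 to 75 without a treated ewe. Left-out P4 ewes were lower in these genes than the P4 ewes that chose them, which the rule favours. It picks genes that are high in the P4 ewes used, so this is no finding. A left-out P4 ewe had a median of 54.1%, 67.5%, 73.6%, 81.1% and 84.2% of the mean of the other 4 P4 ewes for replicates 1 to 5, whereas over all genes with a P4 mean of at least 1 in the 9 ewes the medians were 98.0% to 100.1%. P4 replicate 1 was the furthest below, and it was at least 4 times the treated mean in 37 of the 71 genes chosen without it. A left-out treated ewe had a median of 13.0%, 15.9%, 12.2%, 16.8% and 21.6% of the P4 mean for replicates 1 to 5. That mean is of P4 ewes that helped choose the genes, so these percentages are not free of the choice. With a P4 ewe and a treated ewe both left out, the median left was 12.4% to 33.1%, as given above. For the genes chosen with only a treated ewe left out, the mean of the other 4 treated ewes was a median of 13.6% to 16.2% of the P4 mean. For P4+RU486 replicate 5 the value was 21.6% in the ewe itself against 15.6% in the other 4. P4+RU486 replicate 2, the library highest in each library measure, was at 15.9% against 15.1%.

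**Figure D5:**
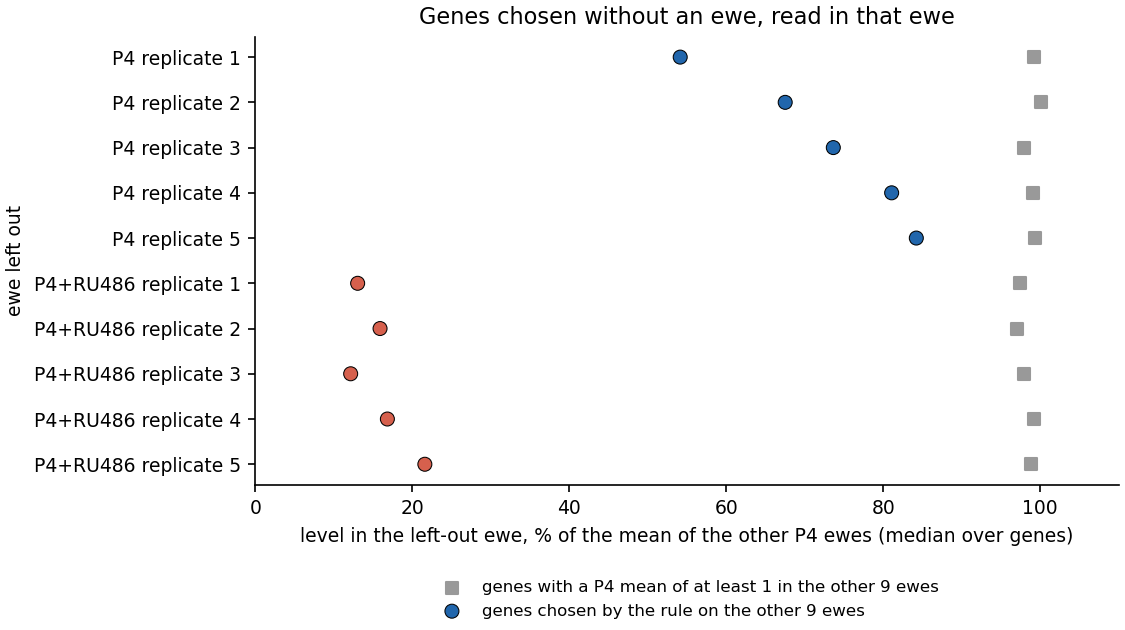
Median level, in the ewe named on the vertical axis, of the genes that the rule chose on the other 9 ewes (circles, P4 ewes blue and P4+RU486 ewes red), as a percentage of the mean of the other P4 ewes, with the same over all genes with a P4 mean of at least 1 in those 9 ewes (grey squares). Left-out P4 ewes lie between 54.1% and 84.2%, left-out P4+RU486 ewes between 12.2% and 21.6%, and all genes between 97.0% and 100.1%. The mean used comes from P4 ewes that helped choose the genes, so the circles are not free of the choice.

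Membership at the edges of the rule depended on single ewes. Of the 59 members, 38 were chosen in every set of 9 ewes, and 146 genes were chosen in at least 1 set. The 5 members nearest the fold threshold had ratios of 4.02 to 4.09, and the 5 genes just outside it had ratios of 3.91 to 3.99. The nearest of the latter, at 20.7 FPKM under P4 alone, and 5.19 FPKM with RU486, had a lowest P4 ewe of 9.12 and a highest treated ewe of 8.64 FPKM. A further 32 genes met the other conditions with a P4 mean under 1 FPKM, the highest of them at 0.948.

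The 52 genes that were at least 4-fold lower but overlapped between the groups included a transcript more abundant than any member. It was at 1333, 7223, 11688, 2112 and 2295 FPKM under P4 alone, and at 1492, 544, 323, 209.8 and 1014 FPKM with RU486. Its means were 4930.3 ± 4437 and 717 ± 532 FPKM, a ratio of 6.88. P4 replicate 1 lay below P4+RU486 replicate 1, which kept it out, and P4 replicate 3 was again the highest. In 33 of the 52 genes the overlap came from a single ewe and was gone without it.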

How the data were processed

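The authors deposited 1 table with a row for each of 23020 sheep genes and a value for each of 10 ewes. Per the submitters' processing notes, the tools were edgeR, featureCounts 1.5.0, HISAT2 2.0.3 and cutadapt 1.11 and the build was Oar_v3.1, named without role or order. No annotation, filter or library scaling is named in the sources used here. The values the authors deposited were read as FPKM, rounded to 2 decimals. Their sums differ between ewes, and among 1353 genes above 0 in a single ewe the value ranged from 0.022 (10th percentile) to 0.618 (90th percentile). Without read counts, it cannot be told whether 1 read is worth the same in all genes. TPM with genes removed would look alike. Depth is unknown, and no counting interval is given. The column of adjusted p-values in the table was not used.

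Members were found by the rule on the values as deposited. The members and lists were chosen with earlier results of these data known. The gene lists and cell type markers that were planned need symbols and were not used. Without symbols, the rule for named genes gave 2 identifiers: the member of highest P4 mean, and the member of largest ratio among those with a P4 mean of at least 10. Other members described singly were chosen after their values were seen. The model across all genes was limma 3.58.1 in R 4.3.3 on log2(FPKM + 1), with 1 term for the group, a trend on the mean, and Benjamini-Hochberg adjustment at 0.05 over 23019 genes (all except 1 gene with no value above 0). Library measures were compared by exact permutation tests in Python 3.11.15 with scipy 1.17.1. A tie for the highest or lowest ewe was counted for no ewe. Alternatives were thresholds of the rule, pseudocounts, a filter on low values, median-ratio and quantile scaling, and leaving out each ewe.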

Additional observations from a re-analysis of the deposited data

Results flagged for a closer look

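Each member was searched in each group for an ewe far from the other 4 (Dixon's ratio on log2(FPKM + 1), 118 groups of 5 values), and so were the library measures and the members' summed level, 126 groups in all. For normally distributed values chance flags about 1 in 20 such groups, a rate not tested here for chosen members or values near 0. The search flagged 10 groups. In P4 alone there was 1 member, rank 25, with P4 replicate 3 at 31.4 FPKM against 6.6 to 10.3 in the other 4 ewes. The other 8 members had a treated ewe apart. P4+RU486 replicate 2 was high for rank 19 (7.65 FPKM against 3.53 to 4.36) and rank 54 (0.67 against 0.16 to 0.21) and low for rank 56 (0 against 0.17 to 0.24). P4+RU486 replicate 1 was high for rank 22 (4.28 FPKM against 2.32 to 2.58) and rank 32 (2.67 against 0.59 to 0.89). P4+RU486 replicate 5 was high for rank 37 (0.99 FPKM against 0 to 0.16) and rank 45 (0.85 against 0 in the others), and P4+RU486 replicate 4 was high for rank 44 (1.2 FPKM against 0.18 to 0.28). Of the library measures, the summed FPKM of P4+RU486 replicate 2 was 965174, against 704242 to 765735 in the other treated ewes.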

How the results depend on the processing

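The number of members followed the thresholds of the rule. It was 104 with a ratio of at least 3, 36 with a P4 mean of at least 5 FPKM, 91 with no floor on the P4 mean and 111 without the condition on overlap, against 59. It stayed within 1.5 times of 59 with a ratio of at least 5 (41), with medians (60, of which 49 were members), with median-ratio scaling (59, all members), with quantile normalisation (57, of which 54 were members) and without 1 ewe at a time (58 to 77). The calls over all genes numbered 557, and 181 to 1024 without 1 ewe at a time. The members called lower, an alternative added after seeing the data, numbered 31 (without P4+RU486 replicate 3) to 52 without 1 ewe, and 34 without P4 replicate 4. They were 43 of the 43 members that passed the filter on low values, and 44 to 53 of 59 under the other settings. Over all genes, 132 of 22868 were called lower without P4+RU486 replicate 3, and 124 of 22880 without P4 replicate 4. With the filter 398 of 14866 genes were called lower, and 283 to 329 of 23019 under the other settings. The model uses the contrast that chose the members, so nothing is read from these counts. The ratio of the summed levels was 7.57 without the 5 most abundant members, against 5.84, and 5.24 to 6.2 without 1 ewe at a time. Both named members kept their direction, which their choice fixes. The difference in summed FPKM between the groups, P4+RU486 minus P4, was 31820 with all ewes and -14859 to 50374 without 1 ewe at a time, turning negative without P4+RU486 replicate 2. Leaving out ewes for library measures was also added after seeing the data. The alternatives for counts were not run, since the table holds none. No paired analysis was run, since the ewes are separate animals and the labels give no pairing. The unknown depth limits the rarest members most.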
